A study of Bos taurus with 72 samples.

Results

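Phenylalanine (Phe) and threonine (Thr) were compared with the other 8 essential amino acids (EAA) given singly to bovine mammary epithelial cells (BMECs). The comparison used the 12 libraries labelled Phe and Thr, of 72 in the series, against the 48 libraries of arginine (Arg), histidine (His), isoleucine (Ile), leucine (Leu), lysine (Lys), methionine (Met), tryptophan (Trp) and valine (Val). The BMECs, of wild-type genotype by the labels, were primary cells from dairy cow mammary gland at passage 6, starved of serum overnight and then kept for 6 h in 1 of 12 media. NEG was DMEM-F12 without any EAA, POS was the full DMEM-F12, and each single EAA treatment was NEG with that EAA brought to its level in POS. All groups therefore shared the serum starvation, and all but POS lacked at least 9 EAA. Each treatment had 6 replicates, which the paper calls biological, but nothing in the labels ties a replicate to a separate cow or isolation, so the p-values measure the spread between these samples, which may be technical. Epithelial markers could not be checked, because the gene identifiers are not paired with symbols.

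An EAA cannot be made by the cell in sufficient amount and has to come from the medium. Phe is the precursor of tyrosine and is built into protein, and Thr can be broken down to glycine or built into protein, with mucins rich in it. When an amino acid is short, its uncharged transfer RNA activates the kinase GCN2 and the transcription factor ATF4, and growth signalling through mTORC1 falls. Leu and Arg are the amino acids whose direct sensors for mTORC1 are best known. In NEG with a single EAA added, the remaining EAA are still missing from the medium.

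Read depth was similar across the treatments. Reads on genes, recovered from the FPKM of the files (fragments scaled by gene length and by library), ranged from 15252429 to 17847085 in Phe and from 14732054 to 18602430 in Thr, within 12006111 to 18602430 over all 72 libraries. The number of genes above 0 was high and even in Phe (17571 to 17911, median 17796) and Thr (17629 to 17956, median 17849). Among the other 8 treatments the medians ran from 16194 (Leu) to 17299.5 (Trp), and that of NEG was 17329. Several libraries stood apart from their treatments. Leu_1 (10495 genes above 0), Arg_4 (11838) and POS_4 (13537) were low. In the paper's read statistics, Leu_1 and Arg_4 also had the lowest mapping efficiencies of the 72 libraries, well below all others. Of the 48 libraries of the other 8 EAA, the 4 with the most genes above 0 were Val_3 (18393), Met_1 (18058), Trp_1 (17753) and Met_6 (17570), and the next had 17490. Trp_1, Met_6, Met_1 and Val_3 had values near those of NEG, Phe or Thr libraries in several of the genes named below, and whether wells or labels were exchanged cannot be told apart from other sources in these data. Main counts below are given with and without these libraries where they change by over 1.5 times.

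Few genes lay away from the NEG level with Phe or Thr, and many did with each of the other 8 EAA. Tests and counts used 12121 genes, those whose mean FPKM over all libraries reached 1, on log2(FPKM + 1). The treatment median lay more than 0.5 from the NEG median for 366 genes with Phe (3.02%; 249 higher and 117 lower) and for 352 genes with Thr (2.9%; 296 higher and 56 lower). The counts of the other 8 ran from 1382 genes with Lys (277 higher and 1105 lower) to 6101 with Val (2303 higher and 3798 lower). Without Leu_1, Arg_4 and Val_3, Arg went from 1685 genes to 1031 and was then the lowest of the 8, and Val had 6525. POS gave 4098 genes. Without NEG_2, a NEG library with 16596 genes above 0, the counts were 320 for Phe and 315 for Thr. At this limit of 0.5, Phe and Thr had more genes above NEG than below it, and each of the other 8 had more below than above. This did not hold for smaller differences, as Phe had 513 genes higher and 966 lower than NEG by adjusted p alone, and the median difference over all genes was -0.04 for both Phe and Thr. All these counts share the 6 NEG libraries.

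**Figure D1:**
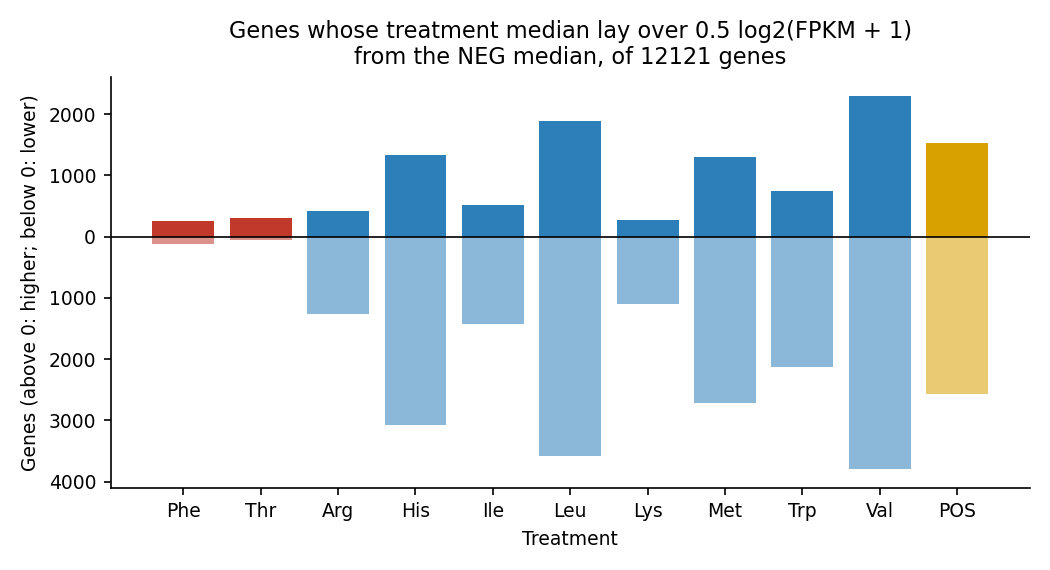
Number of genes, of 12121, whose treatment median differed from the NEG median by more than 0.5 on the log2(FPKM + 1) scale, with genes higher than NEG drawn upwards and genes lower than NEG downwards from 0. Phe has 366 and Thr 352 such genes, and the other 8 EAA (blue) have between 1382 (Lys) and 6101 (Val). Without Leu_1, Arg_4 and Val_3 these would be 1031 (Arg) and 6525 (Val).

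With all libraries kept, replicates of Phe and Thr were also the closest to one another. The median over genes of the SD within a treatment was 0.103 log2 units for Phe and 0.129 for Thr. It was 0.172 for Lys, 0.204 for NEG and up to 0.430 for Leu, which includes Leu_1. The SD was not computed without libraries that stood apart, such as Leu_1, Arg_4 and Val_3, so this order may rest on them. The Phe median lay within 0.25 of NEG for 76.8% of the genes and the Thr median for 80.4%. For the other 8 that share ran from 25.8% (Val) to 57.4% (Lys).

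Phe and Thr did not separate from each other at these limits. A gene is called here at a Benjamini-Hochberg adjusted p under 0.05 by limma and a difference over 1 on the log2(FPKM + 1) scale. With Phe against Thr, 0 of 12121 genes were called (0%), 1714 had an unadjusted p under 0.05, and 0 were called by voom on the recovered reads. The differences between the 2 treatments ran from -0.20 at the 5th percentile of genes to 0.18 at the 95th percentile. By adjusted p alone, 1 gene (0.00825%), of 1116 bp, was lower with Phe than with Thr by 0.28 (SE 0.04, adjusted p = 0.0209). Without Thr_3, whose genes above 0 were the fewest of Thr, 7 genes were called.

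Against the other 8 EAA, Phe and Thr together gave 158 called genes of 12121 (1.30%), of which 150 were higher with Phe and Thr (1.24%) and 8 lower (0.0660%). Each treatment had the same weight within its side of the contrast, and the pair was put together with earlier results of these data known. The p-values count libraries, and with treatment medians as units 139 genes were called, of which 110 were among the 158. The fold limit set most of this count, as 8613 genes passed the adjusted p alone (71.1%; 5026 higher and 3587 lower), and the median difference over all genes was 0.09, with the 5th and 95th percentiles at -0.53 and 0.75. A pseudocount of 0.1 in place of 1 gave 432 called genes, and voom on the recovered reads gave 482. With Phe alone on the one side 131 genes were called, and with Thr alone 181. For 138 of the 150 genes called higher, the Phe and the Thr median were both above the medians of all 8 others. For 7 of the 8 called lower, both were below all 8. Over all genes, these arrangements of medians were found in 28.3% (higher) and 19.4% (lower), and no gene had the 12 Phe and Thr libraries all above or all below the 48 others. Without Val_3, Met_1, Trp_1 and Met_6, a set picked after the data were seen, 239 genes were called (227 higher and 12 lower). Then 9 genes had the 12 libraries all above the remaining 44 and 14 all below. Without Leu_1, Arg_4 and Val_3, 124 genes were called, of which 119 were among the 158.

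A percentage listed for each library in the study's read statistics was lowest, on average, in the Phe and Thr libraries. The paper's table lists it as a share by Phred quality, in a column apart from the mapping efficiency. The paper's text gives the same range as a mapping rate, which differs from the mapping column of that table. With it as a covariate 28 genes were called (23 higher and 5 lower), and its part in the difference was not tested further. The contrast also leaned on the treatments with the strongest shifts, since 96 genes were called when the Leu treatment was left out and 86 without Leu and Val.

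Set against each other treatment in turn, Phe and Thr gave counts of called genes whose order depended on single libraries. With all libraries, called genes numbered 89 against Lys (0.734%, 80 higher with Phe and Thr), 89 against Trp (0.734%, 81 higher) and 113 against Ile (0.932%, 89 higher). They numbered 188 against Met (1.55%, 163 higher), 218 against Arg (1.80%, 207 higher) and 288 against His (2.38%, 257 higher). The counts were 946 against Val (7.80%, 806 higher) and 1889 against Leu (15.6%, 1615 higher), and 969 against POS (7.99%, 736 higher). In all 9 comparisons more genes were higher with Phe and Thr than lower. Leaving out libraries with the fewest or the most genes above 0 changed 5 of these counts by over 1.5 times. Without Arg_4 the count for Arg was 97, without Leu_1 that for Leu was 794, and without Trp_1 that for Trp was 177. Without Met_1 and Met_6 the count for Met was 714, and without Val_3 that for Val was 1773. Trp then came above Arg and Ile, and Val above Leu. These leave-outs were added after the data were seen. Trp_1, Met_1, Met_6 and Val_3 had values near NEG, Phe or Thr libraries in several named genes. A rise without them largely follows from that choice, so no order of treatments is read from these counts.

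Named genes are the pair with the largest difference in each direction among the genes called whose Phe and Thr medians lay outside the range of the 8. The files give them only as Ensembl identifiers, so their functions cannot be stated here. ENSBTAG00000051364, with a recovered length of 1314 bp, was high in NEG, Phe and Thr and low with the other 8. Its FPKM in Phe ran from 383 to 537 (median 463), in Thr from 207 to 490.2 (median 381) and in NEG from 235 to 330.5 (median 252). The medians of the other 8 lay between 13.6 (Val) and 54.6 (Met). Most of the 48 libraries were far below the 12, and 4 were above the lowest Thr library, namely Trp_1 (381), Met_6 (287), Val_3 (271) and Arg_4 (244). The difference between Phe and Thr and the other 8 was 3.73 (SE 0.36, adjusted p = 7.53e-11 by limma on libraries). With treatment medians as units in limma the adjusted p was 0.00108. Against NEG the gene was higher with Phe by 0.75 (SE 0.12, adjusted p = 0.0197), while the difference of Thr from NEG was 0.41 (SE 0.19, adjusted p = 0.142), and with the 8 it was lower by 3.15 (SE 0.51, adjusted p = 2.16e-05). The 3 comparisons share the NEG libraries.

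ENSBTAG00000054661 had the highest FPKM of the named genes and a recovered length of only 55 bp, so that each read weighs heavily in its FPKM. In Phe it ran from 44815 to 76353 FPKM (median 63843), from 39493 to 73362 reads, and in Thr from 39255 to 61009.9 FPKM (median 50774), from 33231 to 51002 reads. NEG ran from 28922 to 42766 FPKM (median 33392). With the other 8 EAA the medians were between 989 (Val) and 9487 (Met), and the libraries above the lowest of the 12 were Trp_1 (62289) and Met_6 (40214). The difference between Phe and Thr and the other 8 was 3.59 (SE 0.39, adjusted p = 1.59e-09, and 0.0164 with treatment medians as units). Its difference from NEG was 0.87 with Phe (SE 0.17, adjusted p = 0.0254) and 0.56 with Thr (SE 0.16, adjusted p = 0.0869). The 2 genes thus lay highest with Phe in these data, next highest with Thr and then NEG, but Phe and Thr did not differ by the test between them (adjusted p = 0.402 for ENSBTAG00000051364 and 0.354 for ENSBTAG00000054661).

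The genes named on the lower side had lower FPKM than those named on the higher side. ENSBTAG00000048933 (342 bp) ran from 13.6 to 19.3 FPKM in Phe (median 18.2), from 15.2 to 20.9 in Thr (median 17.6) and from 19.6 to 44.0 in NEG (median 23.9). Medians with the other 8 were 42.8 (Lys) to 74.7 (Leu), and 3 of the 48 libraries were below the highest of the 12, namely Leu_1 (2.79), Trp_1 (16.4) and Met_6 (18.3). The difference was -1.34 (SE 0.23, adjusted p = 2.87e-06, and 0.0086 with treatment medians as units). ENSBTAG00000027213 (654 bp) ran from 3.65 to 5.92 FPKM in Phe (median 4.36), from 3.60 to 5.43 in Thr (median 4.33) and from 3.98 to 12.2 in NEG (median 6.12). Those with the other 8 were 6.96 (Trp) to 27.7 (Leu), and 8 of the 48 libraries were below the highest of the 12, so the groups overlapped most for this gene. The difference was -1.32 (SE 0.22, adjusted p = 2.09e-06, and 0.0469 with treatment medians as units). It was -0.74, short of the fold limit, with the percentage listed in the read statistics as a covariate. For both genes the fitted value lay below NEG with Phe and Thr, by 0.46 to 0.52 log2 units, without passing the test against NEG (adjusted p between 0.0541 and 0.125).

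**Figure D2:**
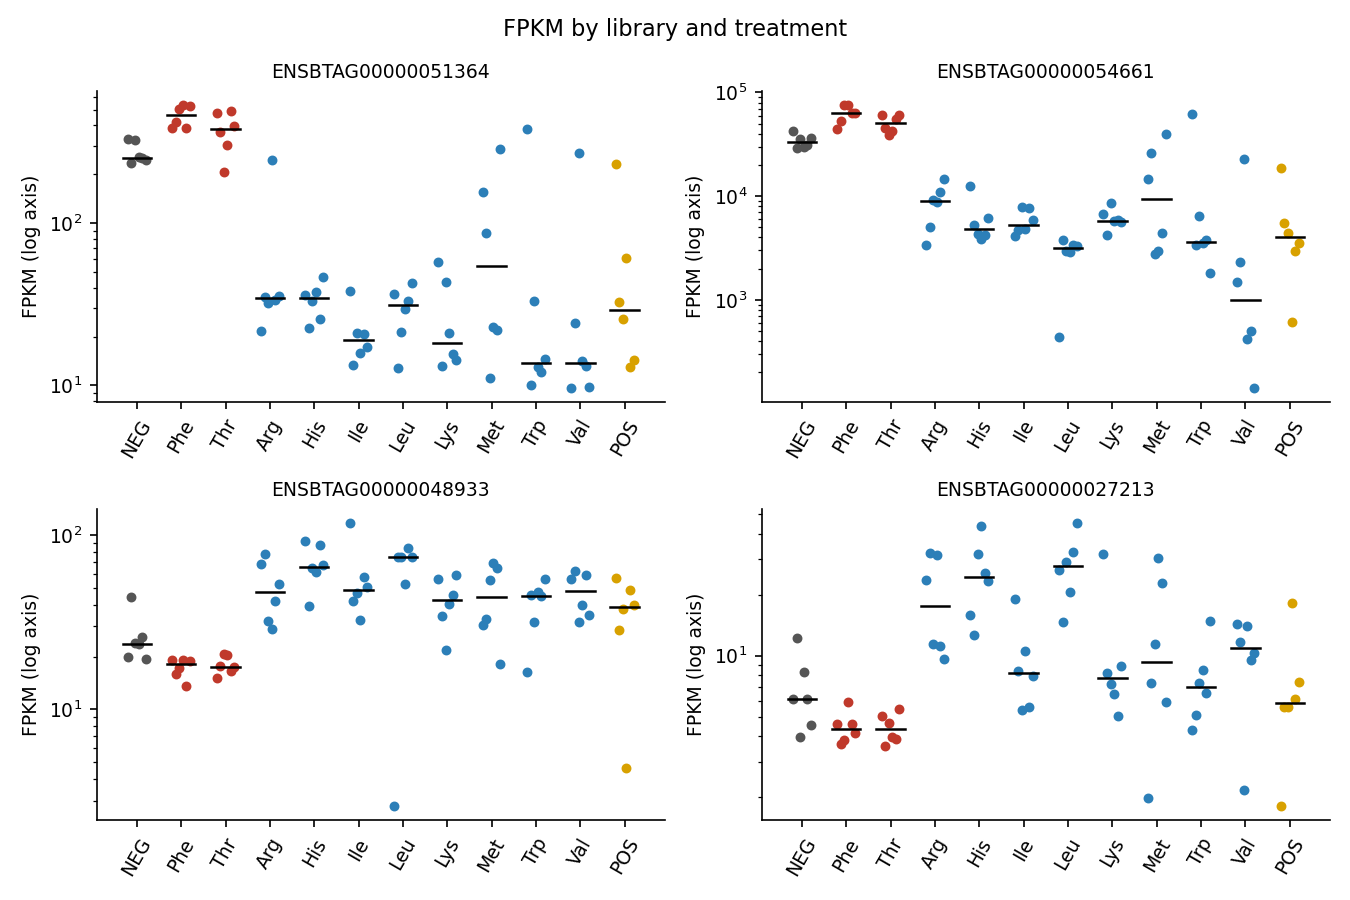
FPKM (log axis) of 4 genes in each of the 72 libraries by treatment, with 6 points for each treatment and a black line at the median. The 12 Phe and Thr libraries (red) of ENSBTAG00000051364 lie between 207 and 537 FPKM and the other 8 EAA (blue) between 9.68 and 381, with Met_6, Val_3 and Arg_4 within the NEG range and Trp_1 above it.

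Gene length went with the call. Of the 150 genes called higher, 104 were in the shortest of 5 length classes of equal size (12 to 1232 bp), and 4 were in the longest class (3899 to 38086 bp). All 8 genes called lower were in the shortest class. Genes under 200 bp made up 20% of those called higher and 3.34% of all genes, and with them left out 125 genes were called. The medians of Phe and Thr themselves followed length relative to NEG. In the shortest class the median difference from NEG was -0.17 with Phe and -0.14 with Thr, and in the longest it was 0.12 and 0.11. For the other 8 they ran from -0.27 to -0.13 in the shortest class and from 0.04 to 0.16 in the longest, so Phe and Thr shared this slope, and it was also there without NEG_2 (-0.14 with Phe and -0.12 with Thr in the shortest class, 0.10 with each in the longest). The median of Phe and Thr minus the other 8 went from 0.15 in the shortest class to 0.05 in the longest. The part of length in the called genes was not tested further.

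**Figure D3:**
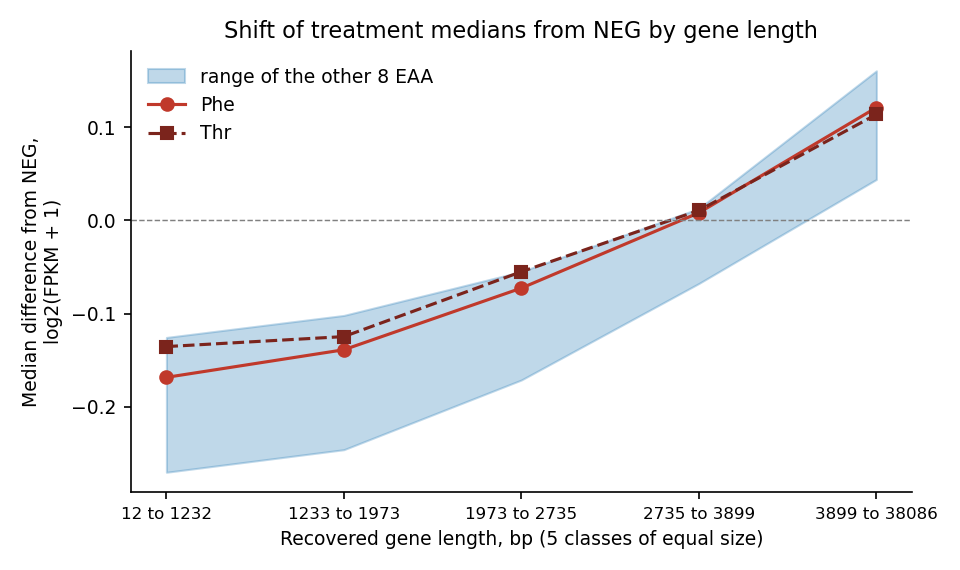
Median over genes of the difference between the treatment median and the NEG median (log2(FPKM + 1), vertical axis) in 5 classes of recovered gene length (horizontal axis), for Phe, Thr and the range of the other 8 EAA (blue band). Phe goes from -0.17 in the shortest genes to 0.12 in the longest and Thr from -0.14 to 0.11, with the band from 0.04 to 0.16 in the longest class.

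The question of which genes stayed at the NEG level with Phe and Thr while moving with the other 8 was asked on treatment medians. A total of 409 genes (3.37%) had all 8 medians more than 0.5 below NEG, and 40 (0.330%) had all 8 more than 0.5 above it. Without Leu_1, Arg_4 and Val_3 there were 221 and 39 genes, and after scaling by total recovered reads 272 and 70. In the 409 genes the median difference from NEG was -1.02 for the 8 together, -0.30 for Phe, -0.17 for Thr and -0.89 for POS. Phe was within 0.25 of NEG for 125 of them, Thr for 301 and POS for 22. The 40 genes looked different, because the median difference from NEG was 1.09 for the 8, 0.60 for Phe, 0.66 for Thr and 1.10 for POS. Phe was within 0.25 of NEG for 5 of these genes and Thr for 9, and Phe was more than 0.5 above NEG for 24 and Thr for 23. The contrast with the 409 was weaker after scaling by total recovered reads. The 70 genes then had medians of 1.01 for the 8, 0.49 for Phe and 0.43 for Thr, with Phe within 0.25 for 15 and Thr for 26. Of the 40 genes, 22 were under 200 bp and the median depth was 31.9 reads per library, against 15 genes and 353 reads for the 409. The differences in each set share the NEG libraries, and no test was made on sets chosen by these medians.

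Genes that lay within 0.25 of NEG with both Phe and Thr and more than 0.5 from it, on 1 side, with all 8 others numbered 116 of 12121. Of these, 113 were lower with the 8 (0.932%) and 3 were higher (0.0248%). After scaling by total recovered reads the rule gave 96 lower and 14 higher, with 60 genes shared with the 116. The values chose these genes, so what follows is a description. At the 0.25 limit the last gene inside was at 0.2489 and the first outside at 0.2503, and at the 0.5 limit they were at -0.5004 and -0.4999. The median difference of the 113 genes from NEG was -0.18 with Phe (-0.25 to 0.16) and -0.09 with Thr (-0.25 to 0.23). It was -0.63 with Lys, -0.68 with Arg, -0.74 with Ile, -0.92 with Trp, -1.05 with Met, -1.08 with His, -1.24 with Leu and -1.29 with Val. Lys was nearest to NEG among the 8 for 49 genes, Arg for 36, Ile for 17, Trp for 10 and Val for 1, while Val was farthest for 65, Leu for 27 and His for 12. Lys, Arg and Ile, the treatments with the fewest genes away from NEG among the 8, thus set the limit for most of them.

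POS was not used to choose the genes, but it is measured here against the same NEG libraries that chose them, so its values are also a description. The POS median was more than 0.5 below NEG for 84 of the 113 genes (all genes 21.2%, from which nothing is read) and for 339 of the 409 genes chosen on the 8 alone. The median POS difference over the 113 was -0.81, and it ranged from -2.72 to 0.39. The 113 genes were of ordinary abundance, with a median of 427 reads per library against 438 for all genes and a median mean FPKM of 17.6 against 11.2. Their median length was 1514 bp against 2342 bp, and 1 of them was under 200 bp.

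The examples are the 2 genes in each direction whose smallest difference among the 8 was largest. ENSBTAG00000031752 (484 bp) ran from 71.8 to 135 FPKM in NEG (median 74.1), from 47.8 to 68.5 in Phe (median 62.5) and from 43.5 to 84.4 in Thr (median 63.7). With the other 8, medians were 15.4 (Leu) to 29.1 (Arg) FPKM, Leu_1 was at 0 and Val_3 was highest at 129. Phe and Thr lay between NEG and the others, and 7 of the 48 libraries were above the lowest of the 12. ENSBTAG00000052681 (207 bp) was near the lower limit of detection, with 1.75 to 3.87 FPKM in Phe (6 to 14 reads), 2.71 to 5.72 in Thr (10 to 18 reads) and 1.12 to 5.05 in NEG. Its medians with the other 8 were 0 (Leu and Val) to 0.931 (Ile), yet Met_1 had 24.1 and Val_3 20.9, above all Phe, Thr and NEG libraries.

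Of the 3 genes higher with the 8, ENSBTAG00000007616 (937 bp) ran from 20.5 to 26.7 FPKM in Phe (median 22.7), from 17.3 to 28.0 in Thr (median 19.4) and from 21.2 to 23.4 in NEG (median 22.4). Its medians with the other 8 were 33.4 (Trp) to 61.8 (Leu) FPKM, and Val_3 was lowest of the 48 at 18.4. ENSBTAG00000011636 (4014 bp) ran from 10.5 to 14.4 FPKM in Phe (median 12.4), from 10.8 to 12.8 in Thr (median 11.4) and from 8.73 to 12.6 in NEG (median 10.7). The medians of the other 8 were 15.8 (Lys) to 23.5 (Leu), and Met_1 was lowest at 9.55. In both genes the 12 libraries kept close to NEG, with 7 and 6 of the 48 others below the highest of the 12. The third gene had a running name, 591 bp and 40.8 reads per library.

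Library by library, the mean difference of the 113 genes from the NEG medians describes the spread within each treatment. Where the treatments lie relative to NEG follows from the rule that chose the genes. It ran from -0.12 to 0.36 in NEG, from -0.30 to -0.03 in Phe (median -0.18) and from -0.49 to 0.05 in Thr (median -0.06). Thr_3 was the lowest of the 12. The medians of the other 8 were between -0.71 (Lys) and -1.44 (Val). Some of their libraries were nevertheless at the level of the 12, with Val_3 at 0.17, Met_1 at 0.00, Trp_1 at -0.19, Arg_5 at -0.28, Met_6 at -0.29, Arg_6 at -0.34, Trp_3 at -0.38, His_1 at -0.40 and Arg_3 at -0.46. POS_1 was at 0.31 and POS_2 at -0.32. At the other end were Leu_1 (-3.26), Arg_4 (-2.31) and POS_4 (-2.24). Among the 48, the number of genes above 0 was highest in Val_3 and Met_1 and lowest in Leu_1 and Arg_4, and its part in the difference was not tested. NEG_2 went the other way, with the highest value of all 72 libraries (0.36) and the fewest genes above 0 of NEG (16596). Val_3 was the highest of the 48 libraries for 72 of the 113 genes.

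**Figure D4:**
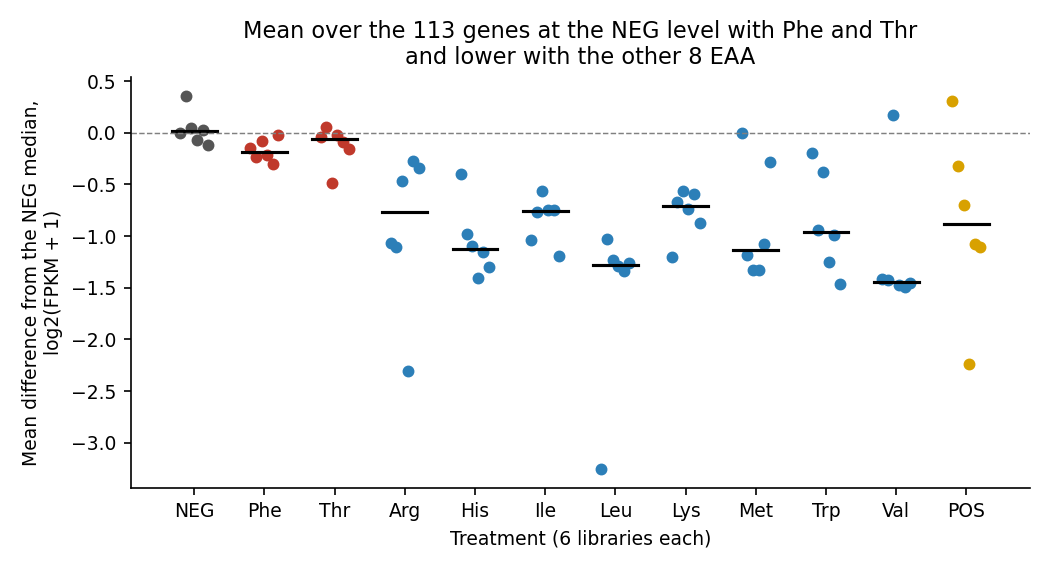
Mean over the 113 genes of the difference from the NEG median (log2(FPKM + 1), vertical axis) for each library, by treatment, with black lines at the treatment medians. The genes were chosen by the medians of NEG and the 10 single EAA treatments, so where these treatments lie follows from the rule. Phe (-0.30 to -0.03) and Thr (-0.49 to 0.05) lie near NEG, the medians of the other 8 EAA lie between -0.71 and -1.44, and single libraries such as Val_3 (0.17) and Leu_1 (-3.26) stand apart.

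Whether single libraries overlapped depended on the treatment. All 12 Phe and Thr libraries were above all 6 of Leu for 103 of the 113 genes (26.1% of all genes), above all 6 of Ile for 44 (11.6%), of Lys for 39 (4.28%) and of His for 38 (16.7%). They were above all 6 of Met for 6 (7.86%), of Arg for 5 (4.88%), of Val for 3 (7.90%) and of Trp for 0 (0.413%). Without Met_1 and Met_6 the count for Met was 110 (32% of all genes), without Trp_1 that for Trp was 18 (3.84%), and without Val_3 that for Val was 107 (35%). It was 6 for Arg without Arg_4 (7.49% of all genes) and 103 for Leu without Leu_1 (29.3%). The 113 genes were chosen to be higher in Phe and Thr medians than in these, so nothing is read from the difference between the shares. Arg was split, with 3 libraries between -0.28 and -0.46 and 3 between -1.07 and -2.31, and its median fell between them. Leaving out Arg_1, Arg_2 or Arg_4 alone left 48 genes of the 116. Leaving out Leu_1, Arg_4 and Val_3 together also left 48, of which 45 were lower with the 8.

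Genes were also chosen by the rule in 3 replicates and measured in the other 3. The pair Phe and Thr and the limits were set with results of all 6 replicates known, so this split is not independent of the values measured and is given as a description. With the medians of replicates 1, 2 and 3, 20 genes met the rule on the lower side, and in replicates 4, 5 and 6 all 20 were higher with Phe and Thr than with the other 8 (56.7% of all genes were). Of the 20, 19 had an adjusted p under 0.05 (38.1% of all genes in that direction) and 12 also a difference over 1 (2.11%). Their median difference was 1.02 (0.59 to 1.92), where that of all genes was 0.10. With the medians of replicates 4, 5 and 6, 23 genes met the rule, and all 23 were higher in replicates 1, 2 and 3 (56.4% of all genes), 11 with an adjusted p under 0.05 (16.8%) and 4 also with a difference over 1 (0.363%). Their median difference was 0.78 (0.44 to 1.52), where that of all genes was 0.08. In each set, 2 genes met the full rule again in the other replicates. On the higher side, no gene met the rule in replicates 1, 2 and 3 and 1 did in 4, 5 and 6, which then differed by -0.70 in the others and passed the adjusted p (14.9% of all genes in that direction) but not the fold limit (0.0495%).

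**Figure D5:**
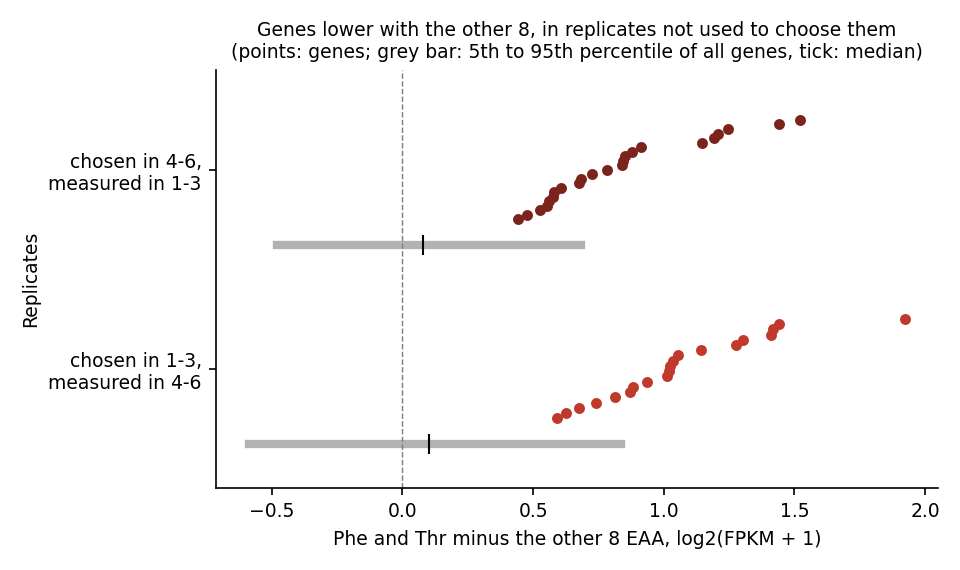
Difference between Phe and Thr and the other 8 EAA (log2(FPKM + 1), horizontal axis) for the 20 and 23 genes chosen in 3 of the replicates and measured in the other 3. All points lie to the right of 0, from 0.44 to 1.92, and the grey bars show the 5th to 95th percentile of all genes, with a tick at their medians of 0.10 and 0.08.

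A few genes did move with Phe or Thr against NEG. With Phe, 24 genes were called (0.198%; 23 higher and 1 lower), 1479 passed the adjusted p alone (12.2%; 513 higher and 966 lower), and the 24 were mostly short and thinly covered, with 20 under 200 bp, a median length of 106.5 bp and a median of 5.08 reads per library. Their median difference from NEG was 1.38 with Phe and 1.12 with Thr, in comparisons that share NEG. With Thr, 2 genes were called, both higher (0.0165%), and 4 passed the adjusted p alone. One of them has 126 bp and 145 reads per library, with a difference of 1.08 (SE 0.14, adjusted p = 0.0257). The other has 12 bp and 0.639 reads per library, so its difference of 3.23 rests on very few reads. By treatment medians, 177 genes lay more than 0.5 above NEG with both Phe and Thr and 32 lay below. The 177 had a median length of 132 bp and 10.6 reads per library, and in 39 of them both medians were above all 8 others, an arrangement found in 28.3% of all genes. These calls against NEG were not stable. Leaving out 1 library left between 0 and 28 genes for Phe, with 0 without Phe_4, 1 without Phe_5, 2 without Phe_2, 3 without Phe_1, 5 without NEG_1, 9 without Phe_3, 14 without Phe_6 and 15 without NEG_4. For Thr it left between 0 and 32, with 32 without NEG_2, 5 without NEG_5 and 1 or none without NEG_1, NEG_4, NEG_6, Thr_1, Thr_2, Thr_4, Thr_5 or Thr_6. The other 8 EAA together, with the same NEG libraries but 48 treated ones, gave 446 called genes (3.68%), of which 406 were lower and 40 higher than NEG, and 280 without NEG_2.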

How the data were processed

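RNA-seq of 72 BMEC libraries was used. Per the labels and the paper, the authors mapped reads with HISAT2 (version 2.0.5 in the submitters' processing notes), assembled them with StringTie (1.3.3b) and computed counts and FPKM. No source used here names the genome build. The deposited values are FPKM for 29550 genes, and 0 of the identifiers matched a bovine gene table of 37063 rows, so planned gene lists, markers and sequences were not run or printed.

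Whole reads were recovered as FPKM times gene length times a library factor, for all 23683 genes above 0, with 100% of the values within 0.0002 of a whole number. They show counting depth only, and PCR copies were not marked. Fits used limma (3.58.1, under R 4.3.3) on log2(FPKM + 1), where the added 1 understates differences of low genes, with the prior variance following the mean level, a mean FPKM of at least 1 over the 72 libraries and equal weights of treatments. Figures used Python (3.11.15), numpy (2.4.6), pandas (2.3.3) and matplotlib (3.10.9). On reads simulated for Phe and Thr against the other 8 EAA over 12121 genes, 94% of 200 genes changed 4-fold were called, and 0 unchanged genes were. The simulation gave every gene the same dispersion, changed only genes that were not thinly covered and held no library apart from its treatment. It therefore checks the fit and gives no rate of false calls for these libraries.

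The pair Phe and Thr, the limits and the genes named were chosen with earlier results of these data known. Named genes are the 2 largest differences in each direction among genes called with medians outside the range of the 8, and the 2 members in each direction with the largest smallest difference among the 8. The comparison with each other treatment in turn, the libraries with the most genes above 0 and the leave-outs of single libraries were added after the data were seen. Alternatives changed the pseudocount, the filter, the scaling, the libraries, the limits and the model, and voom used the recovered reads. The paired check of replicate numbers is in the last section.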

Additional observations from a re-analysis of the deposited data

Results flagged for a closer look

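In 132 sets of 6 libraries (12 treatments, each with the mean difference of the 113 genes, the FPKM of the 8 named genes, the reads on genes and the genes above 0), a library was apart by Dixon's limit in 38, where chance gives about 1 in 20. The sets are not independent, since the same libraries recur.

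In Val_3 the mean difference of the 113 genes was 0.17 (next highest of Val -1.41), the reads were 18379953 and the genes above 0 were 18393. Its FPKM was 271 for ENSBTAG00000051364 (next 24.1), 23006 for ENSBTAG00000054661, 129 for ENSBTAG00000031752, 20.9 for ENSBTAG00000052681, 18.4 for ENSBTAG00000007616 and 10.3 for ENSBTAG00000011636, the last pair being low. Trp_1 was apart at 381 for ENSBTAG00000051364 (next 32.9) and 62289 for ENSBTAG00000054661. POS_1 was apart at 230.2 for ENSBTAG00000051364, 18629 for ENSBTAG00000054661, 130.0 for ENSBTAG00000031752 and 23.7 for ENSBTAG00000052681. Met_1 was apart at 24.1 for ENSBTAG00000052681.

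Arg_4 was apart at 244 for ENSBTAG00000051364, with the fewest reads (12803214) and genes above 0 (11838) of Arg. Leu_1 was apart at -3.26 for the 113 genes (next lowest -1.34), 438 for ENSBTAG00000054661 and 61.4 for ENSBTAG00000011636, with 10495 genes above 0. POS_4 had 13537 genes above 0 and 18.1 FPKM for ENSBTAG00000027213. Ile_1 had 15211 genes above 0, with 38.3 for ENSBTAG00000051364, 117 for ENSBTAG00000048933 and 51.3 for ENSBTAG00000031752.

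NEG_2 was apart at 0.36 for the 113 genes (next highest 0.05), 44.0 for ENSBTAG00000048933 (next 26.2) and 135 for ENSBTAG00000031752 (next 87.3). Thr_3 was apart at 28.0 for ENSBTAG00000007616 (next 20.3), and Phe had no library apart. His_1 was apart at 12464 for ENSBTAG00000054661 and 61.7 for ENSBTAG00000031752, Lys_1 at 31.7 for ENSBTAG00000027213 and 20.02 for ENSBTAG00000011636, and Leu_6 at 1.81 for ENSBTAG00000052681.

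A tested difference between the effect of Phe and Thr and that of the other 8 EAA marked the 4 genes named for the contrast. It was 3.73 for ENSBTAG00000051364, 3.59 for ENSBTAG00000054661, -1.34 for ENSBTAG00000048933 and -1.32 for ENSBTAG00000027213.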

How the results depend on the processing

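For Phe and Thr against the other 8 EAA (158 called), a pseudocount of 0.1 gave 432, voom 482, adjusted p alone 8613 (58.4% higher, against 94.9% of the 158), no Leu treatment 96, no Leu and Val 86, the listed percentage as a covariate 28, and no Met_1, Met_6, Trp_1 and Val_3 239. Leaving out each library gave 120 to 180. The 4 genes named for the contrast kept their direction and an adjusted p under 0.05 under all alternatives run, from 3.01 to 4.16 for ENSBTAG00000051364, 2.73 to 3.87 for ENSBTAG00000054661, -1.46 to -1.03 for ENSBTAG00000048933 and -1.46 to -0.74 for ENSBTAG00000027213, which fell short of the fold limit of 1 with the covariate. Phe against Thr (0 called) gave 11 under the study's unadjusted limits and 0 to 7 leaving out a library. Phe against NEG (24) gave 8 without a filter, 46 under the study's limits, 46 by voom and 0 to 28 leaving out a library. Thr against NEG (2) gave 1 without a filter, 62 under the study's limits, 6 by voom, 32 without NEG_2 and 0 to 32 leaving out a library. The other 8 against NEG (446) gave 741 with a pseudocount of 0.1, 871 by voom and 280 without NEG_2. The 116 genes at the NEG level became 31 within 0.15 of NEG, 388 within 0.5, 1191 with the 8 over 0.25, 4 with the 8 over 1, 754 with at least 6 of the 8, 189 with means, 48 without Leu_1, Arg_4 and Val_3, and 48 to 168 leaving out a library. Scaling by total recovered reads gave 110, of which 60 were shared and 14 were higher with the 8. Genes were also chosen in 3 replicates and measured in the other 3, a split that is not independent of the choice of Phe and Thr. When chosen in replicates 1 to 3, 95% passed the adjusted p, beside 38.1% of all genes in that direction. When chosen in 4 to 6, 50% passed (both directions together), beside 16.8% of all genes higher and 14.9% lower. The cause of these changes was not tested, beyond what the limits themselves fix.

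Replicate numbers do not pair the libraries, because deviations of libraries with the same number correlated with a mean of 0.0099 and those with other numbers with -0.0029. With the number as a block, 158 genes were called for Phe and Thr against the other 8, 0 for Phe against NEG and 1 for Thr against NEG.

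Depth was low for the 24 genes called against NEG with Phe, with a median of 5.08 reads per library, and 20 of them were under 200 bp.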
